A study of Mus musculus with 5 samples.

Results

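Lysosomal genes were followed through obstruction of the mouse kidney and its reversal, in the mononuclear phagocytes and in the tubule cells of the same libraries. The set holds 39 genes of the 28692 gene rows of the droplet matrices. They were chosen by symbol as known lysosomal enzymes, membrane proteins and regulators, and all 39 were found. Cells came from kidneys of C57/BL6 mice aged 8 weeks, digested on ice and sorted as live by their lack of DAPI stain. There were 4 droplet libraries: sham surgery (day 0), unilateral ureteric obstruction (UUO) at day 2 and at day 7, and reversed UUO, taken 7 days after the ureter was reopened, on experimental day 14. Kidneys of 3 mice went into every library. Since each time point has a single library, no p-value is given between them, and their intervals cover counting error only. Values over libraries are given in the order sham, day 2, day 7, reversed.

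The lysosome is the acidic compartment in which a cell breaks down proteins, sugar chains and lipids taken up from outside or delivered by autophagy. A proton pump, the V-ATPase, acidifies it, hydrolases that reach it by way of the Golgi digest the cargo, and a coat of heavily glycosylated membrane proteins protects its wall. Macrophages use it to digest engulfed cells and to cut antigens for presentation, and proximal tubule cells use it to degrade the protein they reclaim from the filtrate. The members were ordered by role. They were cysteine proteases (Ctsb, Ctsc, Ctsh, Ctsk, Ctsl, Ctss, Ctsz, Lgmn), aspartic and serine proteases (Ctsd, Ctsa, Tpp1), glycosidases (Hexa, Glb1, Gusb, Gaa, Man2b1, Manba, Neu1), lipid-handling proteins (Lipa, Npc1, Npc2, Psap, Asah1, Ppt1), acid phosphatases (Acp2, Acp5), membrane proteins (Lamp1, Lamp2, Cd63, Cd68, Scarb2, Laptm5), the glycoproteins Grn and Creg1, and proteins of the pump, a channel and a regulator (Atp6v0d1, Atp6v1h, Atp6ap1, Mcoln1, Tfeb).

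Tfeb encodes a transcription factor that binds the letters CACGTG, often within a longer element, the letters TCACGTGA with a G before and a C after, that is found at many lysosomal promoters. Promoter windows from RefSeq (build GRCm38.p6, 250 bases before to 50 after each start) were available for 34 of the 39 members, with 41 windows in all. Each motif reads the same on both strands, and the shorter ones lie inside the longer ones. The full element was in 0 of the 41 member windows, in 2 of 65 windows of other lysosomal genes and in 107 of all 32851 windows, or 0.326%. The 8 letters TCACGTGA were in 4 member windows, or 9.76%, those of Ctsd, Ctsa, Atp6v0d1 and Mcoln1, against 0.974% of all windows. CACGTG was in 9 member windows, or 21.95%, against 7.15% of all windows. Windows of other lysosomal genes held both more often than the members, TCACGTGA in 9 of 65, or 13.8%, and CACGTG in 18 of 65, or 27.7%. A match is a description of the letters and not a binding site. Shown are 30 bases around the motif for the 4 members that held one and also crossed the fold used below in phagocytes or proximal tubule, and for Ctsa, whose match ends nearest before its start. The choice is for display, and a link between motif and fold was not tested. Glb1, Gaa, Lamp1, Atp6v0d1 and Ctsa held CACGTG without crossing the fold. Members without it in their windows, among them Acp5, Cd63 and Ctss, crossed the fold.
Ctsd: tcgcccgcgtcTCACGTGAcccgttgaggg
Ctsl: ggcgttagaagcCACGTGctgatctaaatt
Lgmn: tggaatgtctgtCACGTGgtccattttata
Mcoln1: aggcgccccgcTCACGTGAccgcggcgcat
Ctsa: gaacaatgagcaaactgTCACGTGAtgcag
Capitals mark the longest of these motifs in the stretch, which is written 5′ to 3′ on the gene's own strand. The Ctsd stretch is chr7:142387908-142387937 on the minus strand, with the motif ending 91 bases before the start. The Ctsl stretch is chr13:64370739-64370768 on the minus strand, with the motif ending 230 bases before the start. That of Lgmn is chr12:102439124-102439153 on the minus strand, 43 bases before the start. For Mcoln1 it is chr8:3500462-3500491 on the plus strand, 38 bases before the start, and for Ctsa it is chr2:164833743-164833772 on the plus strand, 5 bases before the start. In the GENCODE annotation of the same build the Lgmn stretch lay in an intron and the other 4 overlapped non-coding exons.

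The libraries held 2739 to 5938 deposited cells and 18649637 to 30462683 unique molecular identifiers (UMIs). Median UMIs per cell were 2480.5, 5592, 5668 and 4709, and the median mitochondrial share per cell was 40.6% in sham, 16.2% at day 2, 3.00% at day 7 and 14.0% after reversal. After filters 3746, 2159, 4287 and 3140 cells were kept. Pairs of libraries shared 16 to 39 cell barcodes. Cells were gated one by one on summed marker genes, none of them a member, and a gate cut from such a score is a range and not a cell type. The phagocyte gate took 61, 511, 2377 and 585 cells, of which 8, 37, 61 and 33 lay near its threshold, and all 20 of its markers were detected in every library. The proximal tubule gate took 3025, 596, 196 and 1112 cells, of which 12, 34, 12 and 8 lay near. Both gates held UMIs of each other's markers. Phagocyte markers summed to 64.7, 560.3, 2698 and 999 CPM in the proximal tubule gate, against 24430.1 to 33381 in phagocytes, and proximal tubule markers summed to 2834, 396, 392 and 1387 in phagocytes. The source of these UMIs was not tested, and the subtraction used below treats them as free RNA. Levels below are in CPM, which are 3′ UMIs of a gene scaled to a common total per gate and library. They carry no length term, and genes are compared with themselves across gates and libraries.

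Transcripts of the 39 members together made up a larger share of the RNA of phagocytes than of tubule cells in all 4 libraries. The 39 genes together took 1.57%, 1.63%, 1.87% and 2.05% of phagocyte UMIs and 0.634%, 0.948%, 0.877% and 0.742% of proximal tubule UMIs. In C1q-high macrophages, a gate on the complement genes C1qa to C1qc, Ms4a7, Mrc1, Cd81 and Apoe, the share was 1.92%, 1.81%, 2.17% and 2.51%. It was 0.384%, 0.749%, 0.749% and 0.524% in the thick ascending limb and 0.344% to 0.441% in T cells. Between gates of the same libraries a test was possible, with the library as a block (edgeR quasi-likelihood, Benjamini-Hochberg adjustment over all genes tested, called at 0.05). Of 38 members tested between phagocytes and proximal tubule, 21 were higher in phagocytes, 10 were lower and 7 were not called, with a median log2 fold of 0.94. Over all 11580 genes tested 28.4% were called higher and 34.1% lower, with a median of -0.11. Of 71 other lysosomal genes tested, from a second list given further below, 19 were higher and 22 lower, with a median of 0.11. The larger share thus holds for the members and not for lysosomal genes in general. The folds are scaled with TMM factors, which put them below the plain ratio of levels in this comparison, as for Lamp1 and Creg1 below.

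**Figure D1:**
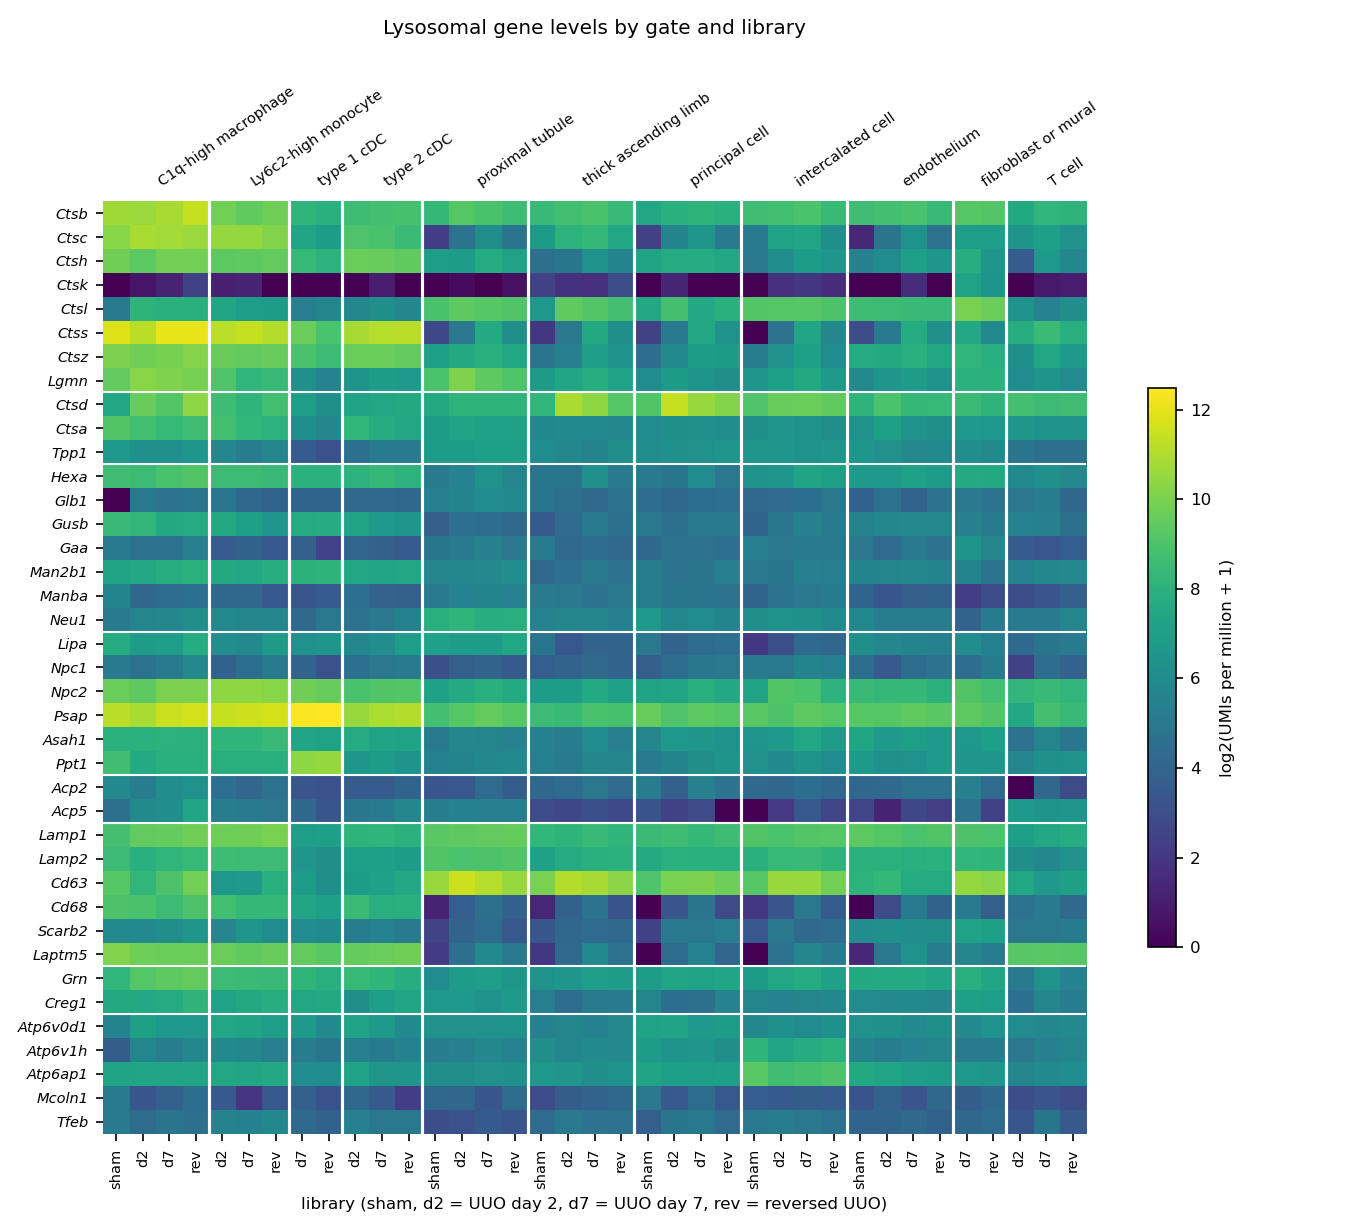
Level of each of the 39 lysosomal genes (rows, in the order of roles, white lines between roles) by gate and library (columns), as log2 of CPM plus 1. Ctss, Psap and Laptm5 are bright across the phagocyte gates, Cd63 is bright across the tubule gates, and Ctsk is dark in every gate but fibroblast or mural cells.

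Among the cysteine proteases, Ctss and Ctsc had the largest differences between phagocytes and proximal tubule. Ctss, the protease that trims the invariant chain for antigen presentation, stood at 2621, 2191, 3391 and 3381 CPM in phagocytes and at 5.52, 31.6, 199 and 71.2 in proximal tubule (log2 fold 5.66, adjusted p = 5.93e-05, edgeR). Ctsc, which activates the serine proteases of immune granules, stood at 887, 1483, 1322 and 1089 in phagocytes and at 3.96, 24.5, 71.2 and 26.7 in proximal tubule (log2 fold 5.36, adjusted p = 1.33e-05, edgeR). For each gene every phagocyte value was above every tubule value. The broad endoprotease Ctsb stood at 989, 1198, 1391 and 1831 in phagocytes and 319, 584, 475 and 396 in proximal tubule (log2 fold 1.20, adjusted p = 0.00121). Ctsh, an aminopeptidase, stood at 887, 659, 849.6 and 775 against 124, 119, 209.8 and 144 (log2 fold 2.03, adjusted p = 1.2e-05), and the carboxypeptidase Ctsz at 696, 849.9, 911 and 985 against 136, 194, 243 and 176 (log2 fold 1.82, adjusted p = 2.61e-05). These 5 proteases thus ran higher in phagocytes in all 4 libraries. Ctsl went the other way, at 70.96, 212, 191 and 173 in phagocytes and 484, 665, 602 and 544 in proximal tubule (log2 fold -2.25, adjusted p = 0.000113). Lgmn, the asparagine-specific endopeptidase, overlapped between the gates, at 399, 823, 754 and 630.4 against 495, 1067, 661 and 532 (log2 fold -0.46, adjusted p = 0.0987). Ctsk, the collagen-degrading protease of osteoclasts, was at 0, 0.701, 1.07 and 2.82 in phagocytes and 0, 0.310, 0 and 0.474 in proximal tubule, too few UMIs for the test.

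The aspartic protease Ctsd, the main acid endoprotease of most cells, did not pass the test between the gates, at 142, 564, 442 and 889 CPM in phagocytes and 194, 282, 282 and 279 in proximal tubule (log2 fold 0.39, adjusted p = 0.362, edgeR). Phagocytes were below the tubule in sham and above it in the other 3 libraries. Ctsa, a serine carboxypeptidase that also stabilises Neu1 and Glb1, stood at 430.2, 383, 279.6 and 305 in phagocytes and 119.9, 155, 139 and 141 in proximal tubule (log2 fold 0.91, adjusted p = 0.00169). Tpp1, a serine tripeptidyl peptidase, was lower in phagocytes, at 48.8, 60.3, 58.3 and 68.00 against 120.1, 115, 131 and 133 (log2 fold -1.44, adjusted p = 0.000207).

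The glycosidases split between the gates, with 3 higher and 4 lower in phagocytes. Hexa, the alpha subunit of beta-hexosaminidase, stood at 315, 342, 417 and 449 CPM in phagocytes and 35.9, 45.2, 82.7 and 53.1 in proximal tubule (log2 fold 2.47, adjusted p = 7.46e-06, edgeR). Gusb, beta-glucuronidase, stood at 244, 248, 173 and 178 against 12.8, 22.3, 21.4 and 19.1 (log2 fold 3.08, adjusted p = 3.96e-06), and Man2b1, an alpha-mannosidase, at 146, 187, 204 and 235 against 53.5, 55.4, 58.2 and 67.8 (log2 fold 1.32, adjusted p = 0.000526). The sialidase Neu1 was the member of this role with the largest difference toward the tubule, at 31.04, 48.2, 46.9 and 56.7 in phagocytes and 232, 290.3, 218 and 232 in proximal tubule (log2 fold -2.74, adjusted p = 1.5e-05). Glb1, beta-galactosidase, stood at 31.04, 27.7, 22.2 and 23.6 against 41.4, 49.2, 63.5 and 60.6 (log2 fold -1.48, adjusted p = 0.000166). The glycogen-degrading Gaa and the beta-mannosidase Manba were also lower in phagocytes, with log2 folds of -0.87 (adjusted p = 0.0035) and -1.57 (adjusted p = 0.000118).

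Of the lipid-handling genes 5 were higher in phagocytes and Lipa was lower. Psap, the precursor of the saposins that help degrade sphingolipids, stood at 2936, 2100.3, 2925 and 3486 CPM in phagocytes and 434, 617, 735 and 615 in proximal tubule (log2 fold 1.85, adjusted p = 2.52e-05, edgeR). Npc2, which hands cholesterol to Npc1 for export, stood at 727, 755, 958 and 942 against 139, 199, 241 and 200.4 (log2 fold 1.73, adjusted p = 2.89e-05), and Npc1 itself at 13.3, 22.4, 31.02 and 44.2 against 7.18, 12.7, 14.5 and 10.7 (log2 fold 0.98, adjusted p = 0.01). The acid ceramidase gene Asah1 stood at 248, 240.2, 237 and 224 against 34.98, 53.9, 49.8 and 45.96 (log2 fold 1.97, adjusted p = 1.86e-05). Ppt1, which removes palmitate from proteins, stood at 466, 236, 289.5 and 375 against 43.7, 48.3, 56.7 and 61.9 (log2 fold 2.25, adjusted p = 1.49e-05). For these 5 genes the gates did not overlap except for Npc1, whose sham phagocytes lay within the tubule range. Lipa, the acid lipase that frees cholesterol from its esters, stood at 115, 91.6, 103 and 175 in phagocytes and 140.4, 118, 114 and 169.9 in proximal tubule, with overlapping ranges (log2 fold -0.57, adjusted p = 0.0311). The acid phosphatase Acp2 was higher in phagocytes, at 22.2, 31.2, 49.7 and 54.6 against 8.95, 9.60, 19.9 and 12.00 (log2 fold 1.36, adjusted p = 0.000599). Acp5, the tartrate-resistant acid phosphatase that marks osteoclasts and some macrophages, was at 17.7, 55.5, 56.4 and 119 against 37.5, 43.95, 42.1 and 40.9 and was not called (log2 fold 0.20, adjusted p = 0.624).

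Membrane proteins lay on both sides. Laptm5, a lysosomal membrane protein of blood cells, stood at 954, 826, 801 and 805 CPM in phagocytes and 3.54, 22.9, 59.7 and 31.9 in proximal tubule (log2 fold 4.89, adjusted p = 6.94e-05, edgeR). Cd68, the macrosialin of macrophages, stood at 430.2, 435, 321 and 384 against 1.35, 12.4, 23.7 and 13.6 (log2 fold 4.93, adjusted p = 5.97e-05). Scarb2, which carries glucocerebrosidase to the lysosome, stood at 48.8, 53.8, 66.3 and 73.8 against 4.89, 14.5, 20.7 and 9.63 (log2 fold 2.00, adjusted p = 0.000115). The wall glycoproteins and the tetraspanin Cd63 lay on the tubule side. Cd63 stood at 293, 218, 409 and 615 in phagocytes and 1507, 2951, 2171 and 1537 in proximal tubule (log2 fold -2.86, adjusted p = 0.00012). Lamp1 stood at 390.3, 634, 625 and 685 against 626, 665, 716 and 736 (log2 fold -0.65, adjusted p = 0.0279), and Lamp2 at 271, 243, 252 and 262 against 540.0, 495, 508 and 554 (log2 fold -1.43, adjusted p = 0.000134). Grn, the progranulin gene, whose product supports lysosomal enzymes and is cut to granulins, was higher in phagocytes at 266, 491, 549 and 542 against 63.7, 115, 129 and 96.5 (log2 fold 1.79, adjusted p = 5.97e-05). Creg1, a secreted glycoprotein, stood at 146, 153, 185 and 246 against 100.1, 102, 84.2 and 104, without overlap, and was not called (log2 fold 0.50, adjusted p = 0.0953).

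Of the pump, channel and regulator genes 2 were higher in phagocytes and 3 were not called. Atp6v0d1, of the membrane sector, stood at 75.4, 138, 102 and 89.01 CPM in phagocytes and 77.8, 78.3, 78.1 and 81.7 in proximal tubule (log2 fold -0.03, adjusted p = 0.918, edgeR). Atp6v1h, of the cytosolic sector, stood at 35.5, 50.8, 38.4 and 47.2 against 38.7, 42.1, 55.9 and 45.5 (log2 fold -0.43, adjusted p = 0.0836). Atp6ap1, an accessory subunit, was higher in phagocytes, at 151, 163, 140.4 and 135 against 71.3, 70.6, 78.9 and 75.5 (log2 fold 0.60, adjusted p = 0.0195). The calcium channel gene Mcoln1 was not called, at 26.6, 11.04, 12.3 and 17.5 against 16.97, 16.7, 9.19 and 20.4 (log2 fold -0.45, adjusted p = 0.145), and Tfeb was higher in phagocytes, at 39.9, 28.6, 26.8 and 23.8 against 7.08, 7.74, 10.7 and 8.84 (log2 fold 1.32, adjusted p = 0.000644).

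**Figure D2:**
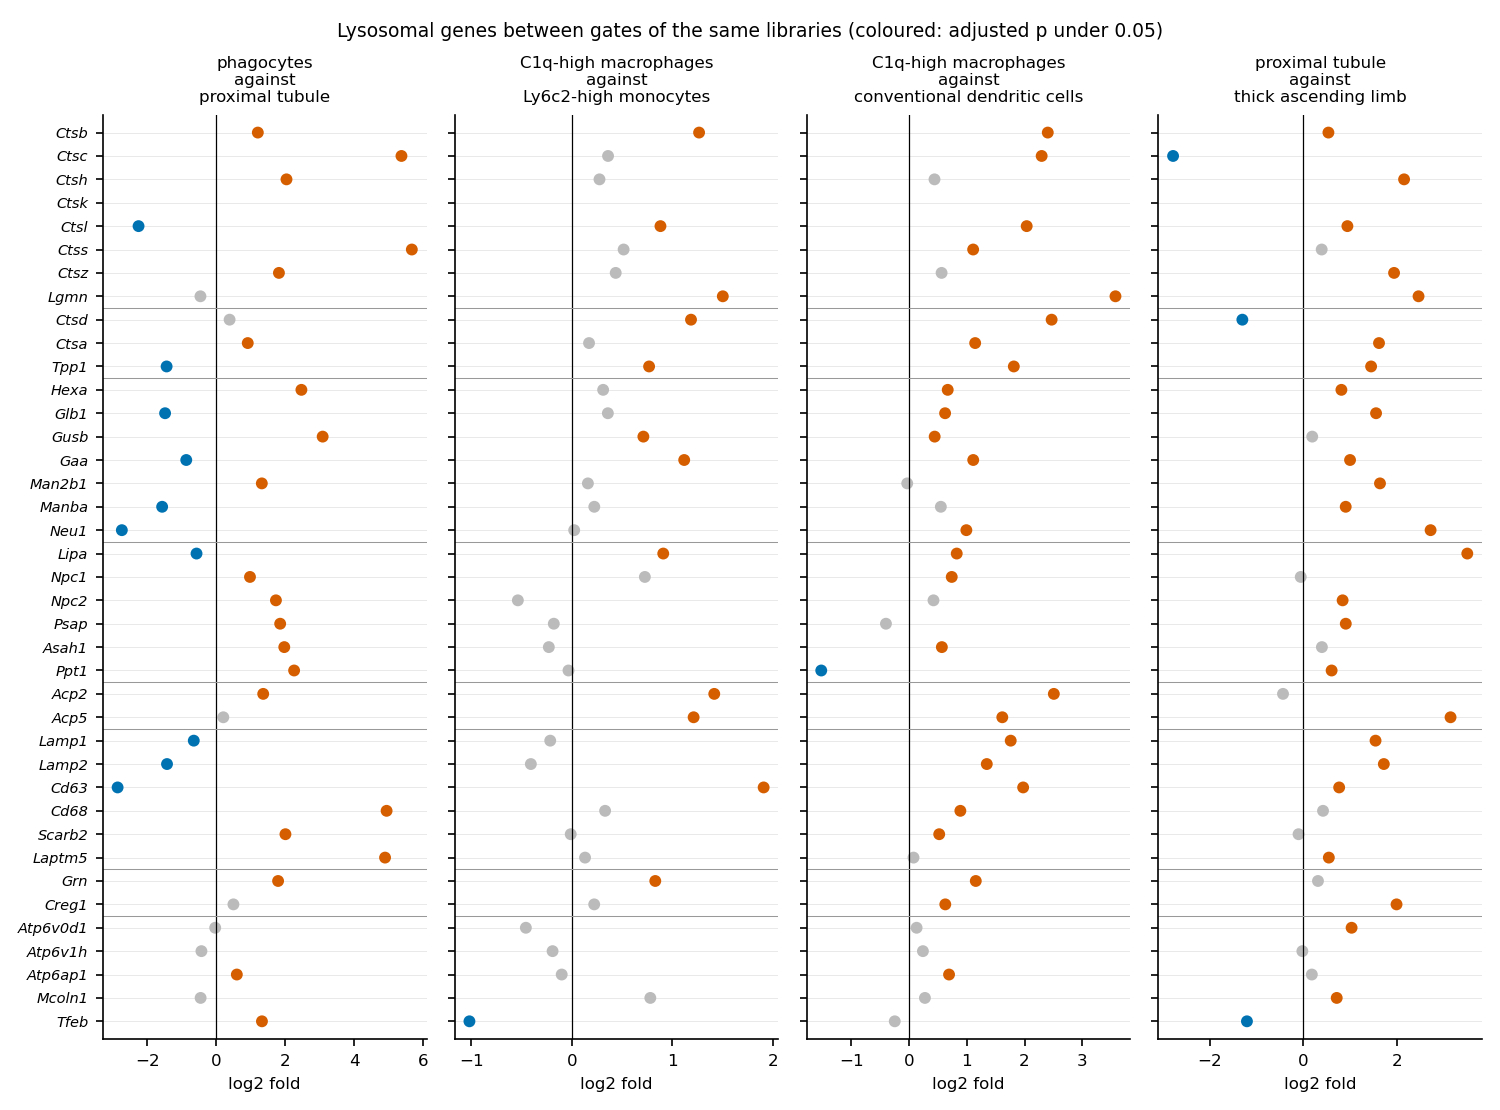
Log2 fold of each member in 4 comparisons of gates within the same libraries (edgeR; coloured points have an adjusted p under 0.05, orange higher and blue lower in the gate named first, grey not called; Ctsk had too few UMIs). In the panel of C1q-high macrophages against conventional dendritic cells, 26 points are orange and 1, Ppt1, is blue.

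Within the phagocytes, C1q-high macrophages carried more lysosomal transcripts than dendritic cells, and for a smaller group of members more than Ly6c2-high monocytes. The 3 libraries other than sham had enough cells for these comparisons (239, 1679 and 394 C1q-high macrophages, 108, 113 and 27 Ly6c2-high monocytes, and 67, 350 and 110 conventional dendritic cells). Against the dendritic cells 26 of 38 members were higher in macrophages, 1 was lower and 11 were not called, with a median log2 fold of 0.72 (edgeR). Over all 10172 genes tested, 11.0% were higher and 10.2% lower, with a median of 0.01. Lgmn differed most, at 1215, 1069 and 966 CPM in macrophages at day 2, day 7 and after reversal, and at 71.9 to 104 in dendritic cells (log2 fold 3.58, adjusted p = 8.05e-07). Next came Acp2 (log2 fold 2.51, adjusted p = 1.57e-05), Ctsd (2.47, adjusted p = 4.4e-05), Ctsb (2.40, adjusted p = 1.2e-05), Ctsc (2.30, adjusted p = 7.92e-06) and Ctsl (2.04, adjusted p = 4.01e-06). The depalmitoylating enzyme Ppt1 was the member lower in macrophages, at 198, 243 and 241 against 496 to 834 in dendritic cells (log2 fold -1.52, adjusted p = 6.21e-05). Of the dendritic gates it was type 1 cells that carried Ppt1, at 1755, 1304 and 1445, while type 2 cells were at 95.7, 113 and 83.9.

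Against Ly6c2-high monocytes, the recruited blood monocytes, 12 of 38 members were higher in C1q-high macrophages, 1 was lower and 25 were not called, with a median log2 fold of 0.32. Of all 8888 genes tested, 7.05% were higher and 7.35% lower, with a median of 0.04. Cd63 stood at 295, 518 and 900.1 CPM in macrophages at day 2, day 7 and after reversal, and at 102, 104 and 246 in monocytes (log2 fold 1.91, adjusted p = 6.54e-05, edgeR). Lgmn stood at 1215, 1069 and 966 against 522, 294 and 356 (log2 fold 1.5005, adjusted p = 0.000169), and Ctsb at 1589, 1869 and 2691 against 924, 702 and 873 (log2 fold 1.26, adjusted p = 0.000972). In each of these the macrophage values lay wholly above the monocyte values. Ctsd (log2 fold 1.18, adjusted p = 0.0012), Acp2 (1.42, adjusted p = 0.01), Acp5 (1.21, adjusted p = 0.0185) and Gaa (1.12, adjusted p = 0.0359) followed. Ctsl, Grn, Lipa, Tpp1 and Gusb completed the 12, with log2 folds of 0.71 to 0.91. Tfeb, the regulator, was lower in macrophages, at 20.1, 26.9 and 23.8 against 46.8, 43.7 and 55.2 (log2 fold -1.02, adjusted p = 0.0157). The count called was 4 without the day 7 library, 4 without the reversed library and 21 without the day 2 library. The shares of all genes called without these libraries are not given here.

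Across time, a member was counted as past the fold when its log2 ratio (with 1 CPM added to each level) was at least 1 in size and the libraries held at least 30 of its UMIs together. In phagocytes 4 of 38 members were past it upward and 1 downward at day 2 against sham. The same rule took 18.9% of 8912 genes upward and 8.68% downward there, and the difference between members and all genes was not tested. Scaled to UMIs without mitochondrial transcripts, 4 were upward and 2 downward, and with a stricter gate 2 were upward and 1 downward. The median log2 ratio was 0.09 over the members and 0.19 over all genes, and the members' median was 0.18 with TMM factors and -0.10 with a stricter gate. Ctsd was at 142, 564, 442 and 889 CPM, a log2 ratio of 1.98 (95% interval 1.48 to 2.53) at day 2 against sham. Ctsl was at 70.96, 212, 191 and 173, with 1.56 (95% interval 0.86 to 2.36), and Acp5 at 17.7, 55.5, 56.4 and 119, with 1.59 (95% interval 0.27 to 3.29). These proteases and the phosphatase were lowest in sham, whose phagocyte gate held 61 cells and 4 Acp5 UMIs. Lgmn, at 399, 823, 754 and 630.4, had a ratio of 1.04 (95% interval 0.74 to 1.36). Within C1q-high macrophages Lgmn had 0.77 (95% interval 0.41 to 1.17), short of the fold, while Ctsd (2.11) and Ctsl (2.93) were past it. The sham C1q-high macrophages were 30 cells, with 15 Ctsd UMIs and 3 Ctsl UMIs, so these 2 ratios rest on few counts. The mix of the phagocyte gate differed. Ly6c2-high monocytes were 4 of 61 cells in sham and 108 of 511 at day 2, and conventional dendritic cells 16 and 67. The part of this mix in the ratios was not tested. Mcoln1 was lower at day 2, at 26.6, 11.04, 12.3 and 17.5, with -1.20 (95% interval -2.36 to 0.21), an interval that reaches past 0. Between day 2 and day 7 no member of 38 was past the fold in phagocytes, where 8.49% of all genes were past it upward and 2.75% downward. The nearest was Cd63, with 0.91 (95% interval 0.82 to 1.00).

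Between day 7 and reversal, 2 of 39 members were past the fold in phagocytes, both upward, against 1.85% of all 11892 genes upward and 1.22% downward. These were Ctsd, from 442 to 889 CPM, with a log2 ratio of 1.01 (95% interval 0.95 to 1.06), and Acp5, from 56.4 to 119, with 1.07 (95% interval 0.92 to 1.22). Ctsd lies at chr7:142375911-142388038 on the minus strand and Acp5 at chr9:22126727-22135711 on the minus strand (build GRCm38, GENCODE). Another coding gene on the same strand, Gm49369, overlaps Ctsd in that annotation, and its part in the Ctsd counts was not tested. Ctsd and Acp5 both stood close to the fold, and under other settings their ratios ran from 0.94 to 1.32 and from 0.96 to 1.22. The count of members past the fold was therefore 0 with a pseudocount of 10, with each cell weighted equally and with clusters in place of gates, and 1 with TMM factors. Behind them came Ctsk, with 0.88 (95% interval 0.15 to 1.57) from 31 UMIs in both libraries together, Lipa, with 0.75 (95% interval 0.63 to 0.87), and Cd63, with 0.59 (95% interval 0.52 to 0.65). Over all members 28 of 39 ratios were above 0 with a median of 0.13, against 5282 of 11892 genes and a median of -0.04. Against sham, the reversed phagocytes had 7 of 38 members past the fold upward, where 17.8% of all genes were upward and 5.17% downward. With a stricter gate the count was 4. The 7 were Ctsl, Ctsd, Npc1, Acp2, Acp5, Cd63 and Grn, with ratios from 1.02 for Grn to 2.68 for Acp5. C1q-high macrophages were 30 of 61 cells of the gate in sham and 394 of 585 after reversal. The part of this mix in the ratios was not tested. Within C1q-high macrophages Cd63 was at 615 and 900 CPM, Npc1 at 35.5 and 58.3 and Acp2 at 59.2 and 79.9. Ctsl was at 35.5 and 240 there, Ctsd at 177 and 1329, Acp5 at 23.7 and 166 and Grn at 296 and 712. The sham levels of this subset rest on few UMIs, 2 of Acp5, 3 of Ctsl, 3 of Npc1 and 5 of Acp2. Those of Ctsd, Grn and Cd63 rest on 15, 25 and 52.

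**Figure D3:**
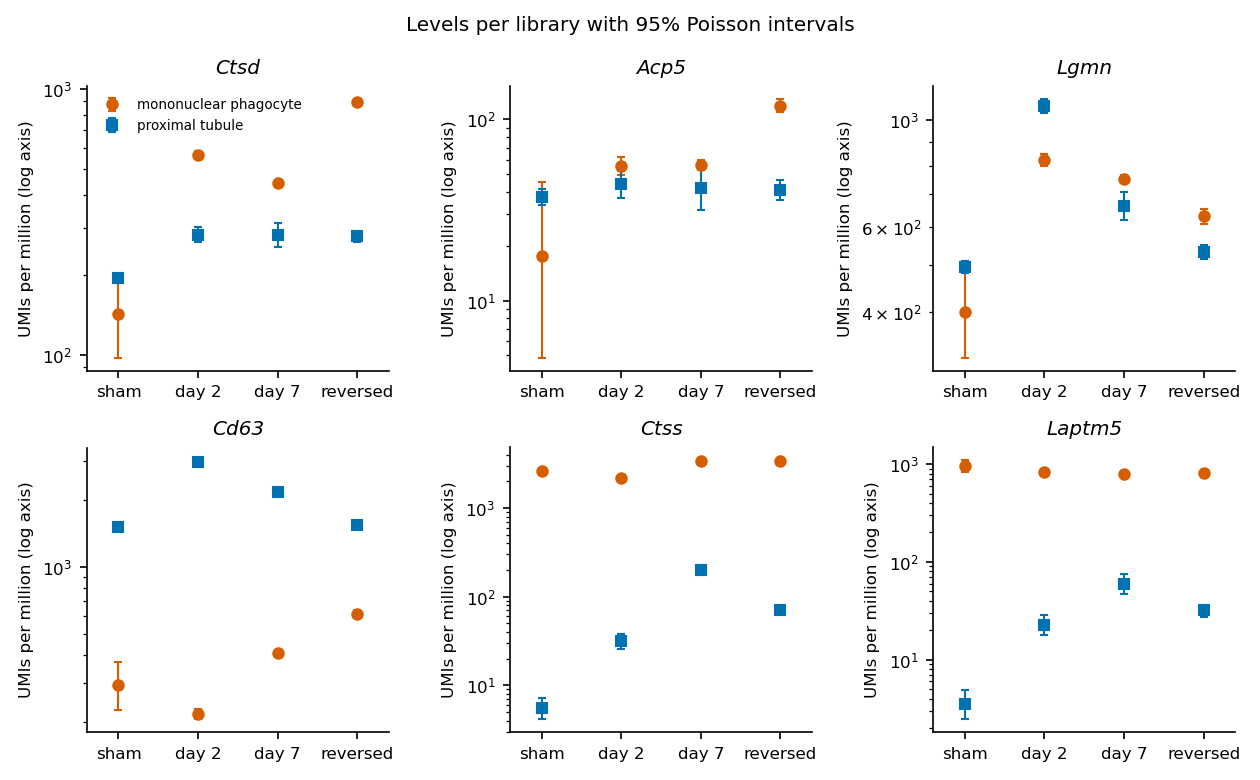
Level of 6 members in CPM (log axis) by library, for phagocytes (circles) and proximal tubule (squares), with 95% Poisson intervals that cover counting error only. Ctsd and Acp5 are highest in reversed phagocytes, in proximal tubule Acp5 is nearly level and Ctsd is lowest in sham, Lgmn and Cd63 peak in proximal tubule at day 2, and the low tubule levels of Ctss and Laptm5 peak at day 7.

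The same comparison was made within subsets. In C1q-high macrophages Ctsd was at 177, 767, 565 and 1329 CPM, with a log2 ratio of 1.23 (95% interval 1.17 to 1.29) for reversed against day 7. Acp5 was at 23.7, 59.6, 69.5 and 166, with 1.24 (95% interval 1.07 to 1.41). These 2 members were past the fold there, against 2.16% of 11061 genes upward and 2.13% downward, and both stayed past it in all 11 alternatives tried, from 1.11 to 1.48 for Ctsd and from 1.11 to 1.37 for Acp5. Cd63 was at 615, 295, 518 and 900.1, with 0.80 (95% interval 0.73 to 0.86), Lipa at 213, 119, 121 and 214, with 0.82 (95% interval 0.67 to 0.96), and Npc1 at 35.5, 24.6, 34.03 and 58.3, with 0.76 (95% interval 0.49 to 1.02). Ctsb, at 1680.2, 1589, 1869 and 2691, had 0.53 (95% interval 0.49 to 0.56). The antigen-processing proteases Ctss and Lgmn were at 0.06 and -0.15. Cd63, Lipa, Npc1 and Ctsb thus stayed short of the fold, with intervals above 0, and Npc2 was at 0.02. Over the 38 members with enough UMIs, 30 ratios were above 0, with a median of 0.20 against -0.04 for all genes. The free-RNA estimate for this gate was 20.1% at day 7 and 15.03% after reversal, and with it subtracted the ratios were 1.48 for Ctsd and 1.37 for Acp5. Its median UMIs per cell were 5969 and 6154.5, and its mitochondrial share 2.94% and 4.13%. Proximal tubule markers in it summed to 383 and 1430 CPM, and their part in these ratios was not tested. Of macrophages thinned to 1000 UMIs, 5.48% held an Acp5 UMI at day 7 and 11.2% after reversal (24.3% and 33.2% unthinned). In thinned endothelial cells the shares were 1.26% and 0% (0 of 361 cells), and a 0 at this depth does not limit the share of cells that carry the transcript. At day 2 against sham, with 30 sham macrophages, 7 members were past the fold upward and 4 downward, where 31.0% and 11.3% of genes were, and at day 7 against day 2 none was, where 10.4% and 5.15% were. Reversed against sham, 7 were past it upward and Manba downward, where 25.8% and 7.85% were. TMM factors moved the median of all genes by 0.20 in the first and 0.13 in the last of these comparisons, and gave 7 upward with 2 downward and 9 upward with 0 downward.

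The C1q-high macrophages were split by Mmp12, the macrophage metalloelastase gene, at 3 UMIs per cell, and the reversal ratios of both subsets were set side by side. The Mmp12-positive cells numbered 3, 36, 118 and 56 and the Mmp12-negative cells 27, 203, 1561 and 338. In the positive cells the 39 members took 1.65% of UMIs at day 2, 2.13% at day 7 and 3.00% after reversal, and in the negative cells 1.85%, 2.18% and 2.37%. Ctsd went from 897 to 2778 CPM in positive cells, with 1.63 (95% interval 1.52 to 1.74), and from 525 to 926 in negative cells, with 0.82 (95% interval 0.74 to 0.89). Acp5 went from 129 to 446 in positive cells, with 1.78 (95% interval 1.49 to 2.08), and from 62.4 to 87.9 in negative cells, with 0.49 (95% interval 0.25 to 0.72). The intervals of the 2 subsets did not overlap for either gene, while those of Npc1 below did. Cd63 had 1.33 (95% interval 1.17 to 1.49) in positive and 0.61 (95% interval 0.53 to 0.69) in negative cells. Ctsb had 1.19 (95% interval 1.10 to 1.29) against 0.36 (95% interval 0.32 to 0.40), and Npc1 1.39 (95% interval 0.74 to 2.05) against 0.60 (95% interval 0.29 to 0.90). These 5 of 36 members were past the fold upward in the positive cells, where 3.55% of 5687 genes were past it upward and 3.83% downward. They are shown because they passed it there, so their larger ratios in those cells follow in part from that choice. Over all 36 members with enough UMIs in both subsets, the ratio was larger in positive cells for 24 and smaller for 12, and among the 31 not past the fold for 19 and 12. Of 5685 genes 48.7% had the larger ratio in positive cells. At day 7 against day 2, Acp5 and Cd63 were past it upward in positive cells, where 8.93% of genes were upward and 8.39% downward, and none was in negative cells, where 11.1% were upward and 5.09% downward. In the negative cells 0 of 38 were past it after reversal, where 1.74% of genes were past it upward and 2.70% downward. The difference between the subsets in this change was not tested, since each has 1 library per time point. Median UMIs per positive cell were 15168.5 at day 2, 10064.5 at day 7 and 8148.5 after reversal, and in negative cells 11883, 5812 and 5893. Phagocyte markers summed to 23238.9, 33700.6 and 43651.4 CPM in positive cells and to 27398.2, 40533.9 and 45346.2 in negative cells. Proximal tubule markers summed to 294, 398 and 1483 in positive cells and to 366, 381 and 1415 in negative cells. The part of depth and of these markers in the result was not tested.

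A test of Mmp12-positive against Mmp12-negative C1q-high macrophages over the 3 libraries, added after the data had been seen, called 1 of 38 members. That was the acid lipase Lipa, higher in positive cells at 157, 172 and 301 against 110.1, 115 and 189.6 CPM (log2 fold 0.62, adjusted p = 0.0371, edgeR). Of all 8886 genes 1.10% were called higher and 1.69% lower. Ctsd (log2 fold 0.84, adjusted p = 0.08) and Acp5 (log2 fold 1.23, adjusted p = 0.0878) were not called, and Acp5 was higher in positive cells in 2 of the 3 libraries. The Lipa call was lost without the day 7 library and without the reversed library, and without the day 2 library 12 members were called. The share of all genes called without the day 2 library is not given here, so the 12 cannot be read as particular to the members. Dendritic cells gave other values. In type 1 conventional dendritic cells Ctsd was at 126 at day 7 and 72.9 after reversal, with -0.78 (95% interval -1.27 to -0.30), and Ctss had -0.75 (95% interval -0.94 to -0.57). In type 2 cells Ctsd was at 175 and 195, with 0.16 (95% interval -0.17 to 0.47).

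**Figure D4:**
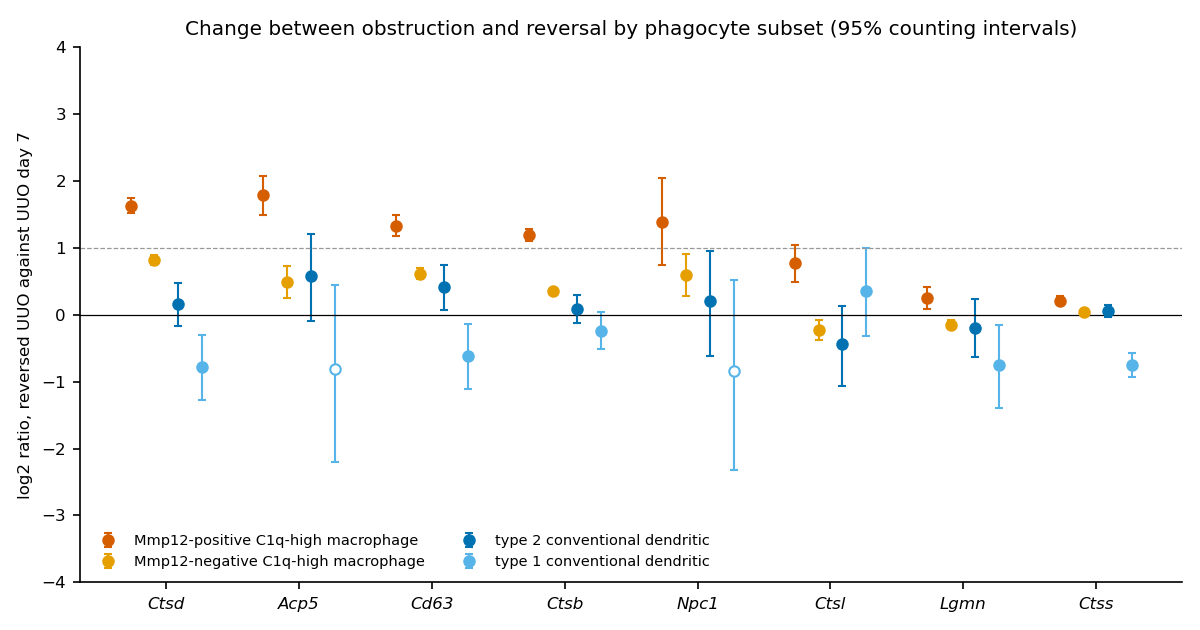
Log2 ratio of reversed UUO against UUO day 7 for 8 members in 4 phagocyte subsets, with 95% counting intervals; the dashed line marks a log2 ratio of 1, and open points have fewer than 30 UMIs. Ctsd, Acp5, Cd63, Ctsb and Npc1 are shown because they passed the line in Mmp12-positive macrophages, and Ctsl, Lgmn and Ctss lie below it there.

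In proximal tubule, Lgmn stood past the fold at day 2 of obstruction, with Cd63 and Ctsb short of it. Of 38 members with enough UMIs, 32 had a ratio above 0 against sham, with a median of 0.34, and 7302 of 9978 genes were above 0, with a median of 0.28. The 6 past the fold upward were Lgmn, Scarb2, Ctsc, Ctss, Cd68 and Laptm5, against 8.97% of all genes upward and 1.47% downward. Lgmn, which also processes other cathepsins, was at 495, 1067, 661 and 532 CPM, with 1.11 (95% interval 1.04 to 1.17). Cd63 was at 1507, 2951, 2171 and 1537, with 0.97 (95% interval 0.93 to 1.01), and Ctsb at 319, 584, 475 and 396, with 0.87 (95% interval 0.79 to 0.95). Psap had 0.51 (95% interval 0.43 to 0.58) and Ctsl 0.46 (95% interval 0.38 to 0.53). Lgmn, Cd63 and Ctsb were each highest at day 2 and lower again at day 7 and after reversal. The gate's own proximal tubule markers summed to 27252.9, 12908.7, 27698.8 and 26581.4 CPM, lowest at day 2, and their part in these levels was not tested. Scarb2 was at 4.89, 14.5, 20.7 and 9.63, with 1.40 (95% interval 0.85 to 1.93). TMM factors moved the median of all genes in this comparison by -0.33 and the members' median to -0.01, and put Lgmn at 0.74, Cd63 at 0.61, Ctsb at 0.51 and Scarb2 at 1.09, and a pseudocount of 10 put Scarb2 at 0.72. Scaling to UMIs without mitochondrial transcripts put Lgmn at 0.90, the summed mitochondrial share of the gate being 34.2%, 24.1%, 18.9% and 29.0%. Cells with a UMI of the injury genes Havcr1 or Krt20 numbered 4, 144, 61 and 22. At day 2 Lgmn was at 1120.0 in them and at 1043 in the others, and Cd63 at 3596 and 2670.1.

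The other 4 members past the fold at day 2 are genes best known from blood cells. Their tubule levels are given beside the phagocyte markers in the same gate, and the source of these UMIs was not tested. Of these 4 members, Ctsc also stood at 111 CPM in the thick ascending limb of sham. Ctss was at 5.52, 31.6, 199 and 71.2 CPM in proximal tubule, Ctsc at 3.96, 24.5, 71.2 and 26.7, Cd68 at 1.35, 12.4, 23.7 and 13.6 and Laptm5 at 3.54, 22.9, 59.7 and 31.9. The summed phagocyte markers there were 64.7, 560.3, 2698 and 999, in the same order of libraries as Ctss, Ctsc, Cd68 and Laptm5. Their day 2 ratios against sham were 2.32, 2.36, 2.51 and 2.40. With the estimated free RNA of each library subtracted, Ctss was left at 0.295 CPM in sham and 0 at day 2, Ctsc at 1.05 and 0, Cd68 at 0.483 and 1.55, and Laptm5 at 1.15 and 0.675. The subtracted ratios of Lgmn (1.20), Scarb2 (1.46), Cd63 (1.08) and Ctsb (0.93) were each slightly higher than those before it. Of cells thinned to 1000 UMIs, 0.595%, 2.52%, 17.3% and 6.12% of proximal tubule cells held a Ctss UMI (1.49%, 15.6%, 66.8% and 31.0% unthinned), against 77.0%, 84.3%, 91.4% and 88.9% of phagocytes. The endothelial gate gave 0.469%, 2.56%, 19.5% and 8.03%, close to the tubule. Median UMIs per proximal tubule cell were 2569, 4396.5, 5434 and 4537.5, and per endothelial cell 2360.0, 3679, 3452 and 3771.

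**Figure D5:**
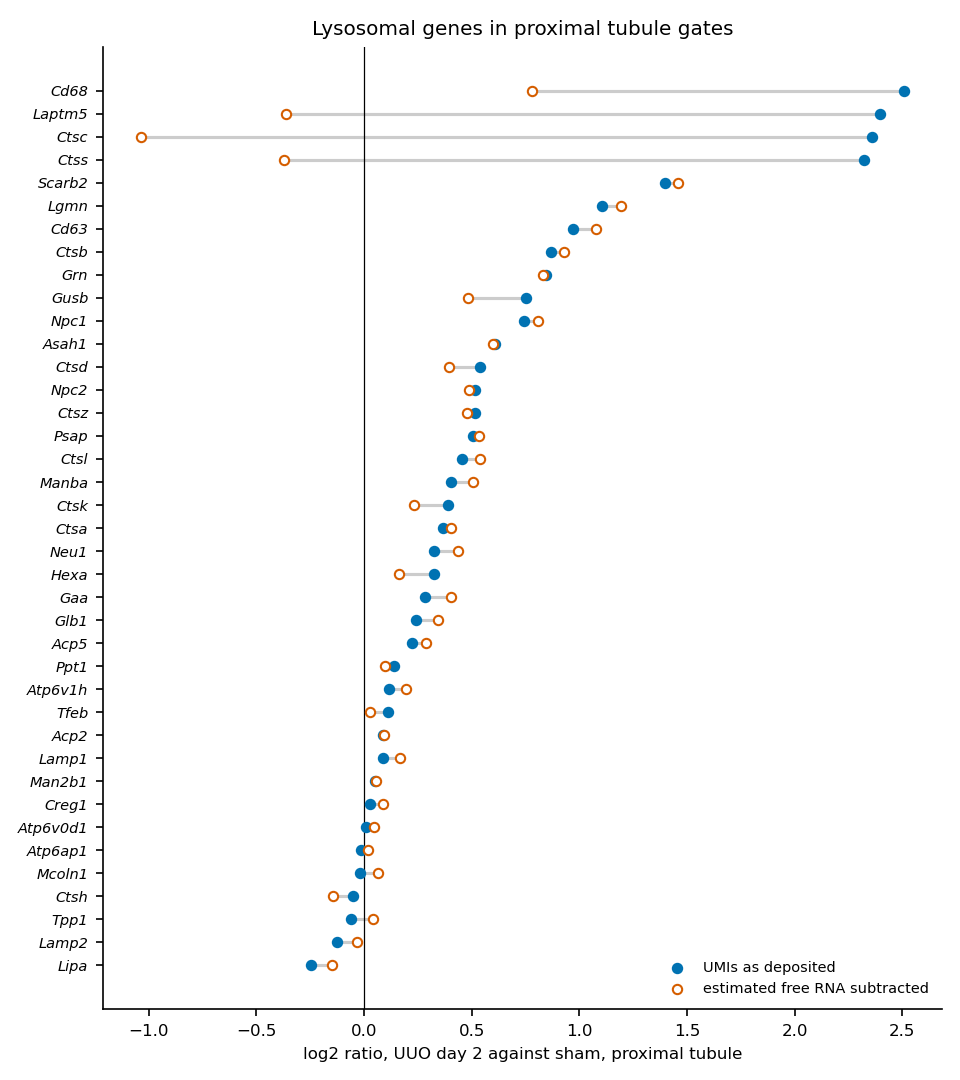
Log2 ratio of UUO day 2 against sham in proximal tubule for every member, as deposited (filled) and after subtraction of the estimated free RNA (open). Cd68, Laptm5, Ctsc and Ctss drop from above 2 to 0.78 or below, with subtracted levels near 0 in which the pseudocount sets the ratio, while Scarb2, Lgmn, Cd63 and Ctsb move right.

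Later steps in proximal tubule were led by Ctss, with Ctsc past the fold in each. At day 7 against day 2 the 3 members past the fold were Ctsc, Ctss and Laptm5, with ratios of 1.504, 2.62 and 1.34, against 7.38% of genes upward and 1.54% downward. With TMM factors there were 3 upward and 1, Mcoln1 (-1.06), downward. With free RNA subtracted none of the 3 stayed past the fold upward: Ctsc and Ctss were at 0 CPM in both libraries, and Laptm5 was at 0.675 at day 2 and 0 at day 7 (-0.74). Lgmn had -0.69 (95% interval -0.80 to -0.58) and Cd63 -0.44 (95% interval -0.50 to -0.38). After reversal against day 7, Ctsc (-1.38), Ctss (-1.47) and Scarb2 (-1.03) were past the fold downward, where 7.35% of genes were, and Mcoln1 upward, where 2.00% were. Subtraction left Ctsc and Ctss at 0 in both libraries here too, and put Scarb2 at -1.24 and Mcoln1 at 1.19. Both calls ended under other settings. Scarb2 was at -0.75 with TMM factors, -0.64 with a pseudocount of 10 and -0.07 with cells limited to 20% mitochondrial UMIs, and Mcoln1 at 0.66 with a pseudocount of 10 and 0.88 with a stricter gate. Mcoln1, the calcium channel, was at 16.97, 16.7, 9.19 and 20.4, with 1.07 (95% interval 0.28 to 1.93). Against sham, reversed proximal tubule had 38 of 38 members above 0 with a median of 0.32, beside 8019 of 10586 genes and a median of 0.26. The 4 past the fold were Ctsc, Ctss, Cd68 and Laptm5, where 9.28% of genes were past it upward and 0.161% downward. With free RNA subtracted none of these 4 stayed past it upward, at -1.04, -0.37, 0.92 and 0.51, between levels of at most 2.06 CPM. TMM factors moved the median of all genes there by -0.33 and the members' median to -0.03. Lgmn (0.10, interval 0.04 to 0.17) and Cd63 (0.03, interval -0.01 to 0.07) had ratios near 0 there, and Psap (0.50, interval 0.44 to 0.56) and Ctsd (0.52, interval 0.43 to 0.62) had larger ones. Which of them lay near 0 depended on the scaling, since with TMM factors Lgmn was at -0.26, Cd63 at -0.33, Psap at 0.14 and Ctsd at 0.16.

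Segments of the tubule differed in which members they carried. Proximal tubule was higher than thick ascending limb for 25 of 38 members and lower for 3, with a median log2 fold of 0.83 (edgeR, all 4 libraries). All 9622 genes gave 24.5% higher and 22.7% lower, with a median of 0.00. Lipa stood at 140.4, 118, 114 and 169.9 CPM in proximal tubule and 27.6, 10.01, 14.7 and 14.9 in thick ascending limb (log2 fold 3.51, adjusted p = 1.36e-08). Acp5 stood at 37.5, 43.95, 42.1 and 40.9 against 6.14, 5.22, 7.36 and 5.69 (log2 fold 3.15, adjusted p = 3.2e-08), and Neu1 at 232, 290.3, 218 and 232 against 46.1, 53.1, 50.8 and 41.2 (log2 fold 2.73, adjusted p = 2.99e-08). The lipase, phosphatase and sialidase thus separated the segments without overlap. Lgmn stood at 495, 1067, 661 and 532 against 111, 162, 217 and 149 (log2 fold 2.47, adjusted p = 3.32e-07). The 3 members lower in proximal tubule were Ctsc, Ctsd and Tfeb. Ctsc stood at 3.96, 24.5, 71.2 and 26.7 against 111, 267, 317 and 174 in thick ascending limb (log2 fold -2.78, adjusted p = 2.38e-06), where in sham the phagocyte markers summed to 50.7 and Laptm5 was at 3.07. Tfeb stood at 7.08, 7.74, 10.7 and 8.84 against 19.96, 30.9, 26.5 and 24.9 (log2 fold -1.20, adjusted p = 0.000485).

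Ctsd was higher under obstruction in the thick ascending limb, the principal cells and the distal convoluted tubule. In thick ascending limb it was at 298, 1922, 1339.7 and 590.3 CPM, with a log2 ratio of 2.69 (95% interval 2.48 to 2.90) at day 2 against sham and -1.18 (95% interval -1.30 to -1.06) for reversed against day 7. In principal cells of the collecting duct it was at 541, 2677, 1502 and 1174, with 2.30 (95% interval 2.04 to 2.57) at day 2, and in the distal convoluted tubule, with 21 to 62 cells per library, at 306, 2679, 1490.0 and 863. Intercalated cells, at 535, 776, 834 and 706, and endothelium, at 277, 493, 323 and 332, varied less. The day 2 levels of thick ascending limb and principal cells were above those of phagocytes (564) and proximal tubule (282) in the same library. Ctsl in thick ascending limb was at 101, 705, 568 and 432, with 2.79 (95% interval 2.43 to 3.16) at day 2, and Cd63 at 1013, 2127, 1846 and 1296, with 1.07 (95% interval 0.95 to 1.19). Between proximal tubule and thick ascending limb Ctsd had a log2 fold of -1.30 (adjusted p = 0.00632) and Ctsl of 0.95 (adjusted p = 0.0314), and with cells limited to 20% mitochondrial UMIs the Ctsl fold was -0.18. At day 2 against sham 7 of 37 members were past the fold upward in thick ascending limb (Ctsc, Ctsl, Ctss, Ctsd, Cd63, Cd68, Laptm5), where 9.55% of genes were, and Lipa downward, where 4.78% were. At day 7, 5 members (Ctsh, Ctss, Ctsz, Hexa, Laptm5) were past it upward against day 2, where 7.46% of genes were upward and 1.26% downward. After reversal 5 were past it downward against day 7 (Ctss, Ctsd, Hexa, Cd68, Laptm5), beside 2.50% of genes downward and 2.46% upward, and 6 of 34 were past it upward against sham (Ctsh, Ctsl, Ctss, Ctsz, Gusb, Laptm5), where 15.3% of genes were upward and 2.44% downward. The summed mitochondrial share of the gate was 33.4%, 20.2%, 9.44% and 17.7%, and its phagocyte markers summed to 50.7, 559, 2413 and 906. Their part in these ratios was not tested. Over all tubule cells together, 7 members were past the fold upward and 1 downward at day 2 against sham, where 20.4% and 3.87% of genes were, and TMM factors made that 6 upward and 4 downward, with the members' median at -0.24 in place of 0.30. At day 7 against day 2 these were 3 upward (6.48% of genes upward, 1.26% downward; with TMM factors 2 upward and 1 downward), for reversed against day 7 Lipa upward (3.72%) and 4 downward (7.67%), which TMM factors turned to 4 upward and 2 downward, and for reversed against sham 5 upward (18.1% upward, 0.253% downward). That sum mixes segments whose shares differ between libraries.

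Intercalated cells of the collecting duct, which secrete acid or base with the proton pump, were compared with the neighbouring principal cells. Of 35 members tested 12 were higher in intercalated cells, 3 were lower and 20 were not called, with a median log2 fold of 0.27 (edgeR). Over all 7159 genes 11.1% were higher and 11.8% lower, with a median of -0.01. The gate used no pump subunit. Atp6ap1, the accessory subunit, stood at 623, 403, 448 and 514 CPM in intercalated and 158, 129.8, 128 and 131 in principal cells (log2 fold 1.87, adjusted p = 1.27e-08). Atp6v1h stood at 289.5, 169, 214 and 252 against 119, 87.5, 93.3 and 72.1 (log2 fold 1.30, adjusted p = 4.2e-06). Atp6v0d1 went the other way, at 56.04, 76.2, 64.2 and 76.7 against 149, 156, 103 and 115 (log2 fold -0.85, adjusted p = 0.000706). Its paralogue Atp6v0d2, among the other lysosomal genes, had a log2 fold of 5.30 toward intercalated cells, so these alternative d subunits differed in direction. Hexa (log2 fold 1.59, adjusted p = 3.88e-06) and Ctsl (log2 fold 1.18, adjusted p = 7.59e-05) were also higher in intercalated cells, and Ctsh (log2 fold -1.19, adjusted p = 4.42e-05) and Ctsd (log2 fold -0.84, adjusted p = 0.00709) were lower.

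A second list of 72 other lysosomal genes, among them further hydrolases, pump subunits and sorting receptors, was counted beside the members. Between phagocytes and proximal tubule 19 of 71 were higher and 22 lower, close to the 28.4% and 34.1% of all genes. The largest folds were those of Plbd1 (log2 fold 4.87), Pla2g15 (3.92) and the cysteine protease inhibitor Cst3 (3.47) in phagocytes and of Atp6v0a4 (-4.50), the sorting receptor Igf2r (-2.80) and the sialic acid exporter Slc17a5 (-2.59) in the tubule. In C1q-high macrophages 21 of 71 were higher and 7 lower than in dendritic cells, where 11.0% and 10.2% of all genes were. Against Ly6c2-high monocytes 6 of 70 were higher and 5 lower, near the 7.05% and 7.35% of all genes. Proximal tubule was higher than thick ascending limb for 28 of 64 and lower for 7, where 24.5% and 22.7% of all genes were, and intercalated cells were higher than principal cells for 19 of 56 and lower for 2, where 11.1% and 11.8% were. In the last comparison the pump subunit Atp6v1g3 (5.76) led with Atp6v0d2. Between day 7 and reversal, 2 of 71 were past the fold upward in phagocytes, Igf2r and Atp6v0d2, near the 1.85% of all genes.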

How the data were processed

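The droplet matrices hold raw UMI counts per gene and cell, as deposited by the authors. The 4 libraries were made with the 10x 3′ V2 chemistry, per the labels' protocols. Cell Ranger, STAR and GRCm38 are named in the submitters' processing notes, and versions and cell calling are not given in the sources used here. The Smart-seq2 wells carry no time point and were not used here. From the counts, cells with under 200 genes or over 50% mitochondrial UMIs were removed, and then the cells with the top Scrublet scores, 0.8% per 1000 cells. Cells were gated on summed marker genes, with a top score of at least 0.25 and a second score of at most 0.7 of it, and for phagocyte subsets at most 0.8. Counts were summed per library and gate. Time points were compared as log2 ratios of CPM with a pseudocount of 1, exact Poisson and conditional binomial 95% intervals and no test. Gates with at least 20 cells were compared with edgeR 4.0.16 (R 4.3.3, quasi-likelihood test, TMM factors, library as a block, Benjamini-Hochberg adjustment over all genes tested), a script tested on simulated data. Repeats are libraries of different time points, and intervals cover counting error only. Free RNA was estimated from markers of other cell types and each library's summed profile, and subtracted as an alternative. Other alternatives were DESeq2 1.42.0, other scalings, pseudocount, filters, gates, clusters (scanpy 1.11.5) and leaving out libraries. Values are printed for the members with the highest levels in each role and those past the fold, the others by fold or count. The members and lists were chosen with earlier results of these data known.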

Additional observations from a re-analysis of the deposited data

Results flagged for a closer look

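In 18 comparisons between time points, covering 12 members, the log2 ratio lay on opposite sides of 0 in phagocytes and in proximal tubule, with both intervals clear of 0. That was 11.8% of the 152 comparisons of members with enough UMIs in both gates, beside 3.97% of 32947 over all genes. Counting intervals are narrower for genes with more UMIs, and the genes were not matched on level. Each gate has 1 library per time point, so the difference was not tested.

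At day 2 against sham, Ctss was at -0.26 in phagocytes and 2.32 in proximal tubule, and Laptm5 at -0.21 and 2.40. After free RNA was subtracted the tubule levels at day 2 were 0 for Ctss and 0.675 CPM for Laptm5. Psap was at -0.48 and 0.51, and Cd63 at -0.43 and 0.97.

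At day 7 against day 2, Ctsb was at 0.22 in phagocytes and -0.30 in proximal tubule, and Cd63 at 0.91 and -0.44. Ctsc was at -0.17 and 1.504, and Cd68 at -0.44 and 0.89. After free RNA was subtracted tubule Ctsc was at 0 CPM in both libraries, and tubule Cd68 at 1.55 at day 2 and 0 at day 7.

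After reversal against day 7, all 6 pairs were positive in phagocytes and negative in proximal tubule. Ctsb was at 0.40 and -0.26, Ctsz at 0.11 and -0.46, and Hexa at 0.11 and -0.63. Psap was at 0.25 and -0.26, Cd63 at 0.59 and -0.50, and Cd68 at 0.26 and -0.76. After free RNA was subtracted tubule Cd68 was at 0 CPM at day 7 and 1.80 after reversal, and the tubule ratio of Psap was 0.01. TMM factors moved the median of all genes in proximal tubule by 0.28 in this comparison and put Ctsb there at 0.03 and Psap at 0.03, so that the sign no longer differed from phagocytes.

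Against sham after reversal, Ctsa was at -0.50 in phagocytes and 0.23 in proximal tubule, and Gusb at -0.45 and 0.54. Ppt1 was at -0.31 and 0.49, and Laptm5 at -0.24 and 2.86. TMM factors moved the median of all genes in proximal tubule by -0.33 here and put Ctsa there at -0.13, below 0 as in phagocytes. Gusb, Ppt1 and Laptm5 stayed above 0, at 0.21, 0.14 and 2.57. After free RNA was subtracted tubule Laptm5 was at 0.51, between 1.15 CPM in sham and 2.06 after reversal. The sham phagocytes in these ratios were 61 cells.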

How the results depend on the processing

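With 1 library per time point, ratios between time points have counting error only, and sham phagocytes (61 cells) limit every comparison with them. Members past the fold in phagocytes were 3 (main 5) at day 2 against sham and 4 (main 7) for reversed against sham with a stricter gate, 1 (main 0) at day 7 against day 2 with free RNA subtracted, and for reversed against day 7 (main 2) 0 with a pseudocount of 10, with each cell weighted equally or with clusters, and 1 with TMM factors. In C1q-high macrophages 1 (main 0) was past it at day 7 against day 2 with free RNA subtracted, a setting added after the data were seen. In proximal tubule 5 (main 3) were past it at day 7 against day 2 with each cell weighted equally and with clusters, 2 (main 4) for reversed against day 7 with a pseudocount of 10, and 1 (main 4) for reversed against sham with free RNA subtracted. Over all tubule cells a pseudocount of 10 gave 5 (main 8) at day 2 and 3 (main 5) for reversed against sham, free RNA subtraction gave 1 (main 3) at day 7 against day 2 and 1 (main 5) for reversed against sham, and scaling without mitochondrial UMIs, added after the data were seen, gave 3 (main 5) for reversed against day 7.

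With free RNA subtracted these ratios past the fold changed sign, between levels of at most 1.65 CPM where the pseudocount sets the ratio: in proximal tubule at day 2 Ctsc (-1.04), Ctss (-0.37) and Laptm5 (-0.36), at day 7 against day 2 Laptm5 (-0.74), for reversed against sham Ctsc (-1.04) and Ctss (-0.37), and over all tubule Laptm5 at day 2 (-1.06), Cd68 at day 7 against day 2 (-1.11) and Cd68 for reversed against day 7 (0.52). Short of the fold, Cd68 in proximal tubule turned to -1.35 between days 2 and 7 and to 1.49 from day 7 to reversal. With a mitochondrial limit of 20% the Ctsl fold of proximal tubule against thick ascending limb was -0.18, and the cause was not tested. Without thinning, the share of cells with an Acp5 UMI in phagocytes was 27.4%, 23.6% and 31.3% at day 2, day 7 and after reversal, and with a Ctsk UMI in fibroblast or mural cells 60.0% and 38.2% at day 7 and after reversal.

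Each library holds both gates of a test, so the replicate block pairs them. Without the replicate block 7 (main 13) members were called for C1q-high macrophages against Ly6c2-high monocytes, 14 (main 27) against dendritic cells, 9 (main 15) for intercalated against principal cells and 0 (main 1) for the Mmp12 subsets. Leaving out 1 library gave 4 to 21 for macrophages against monocytes, 19 to 31 against dendritic cells, 27 to 31 for phagocytes against proximal tubule, 23 to 28 for proximal tubule against thick ascending limb, 10 to 13 for intercalated against principal cells and 0 to 12 for the Mmp12 subsets. The Mmp12 subsets gave 8 with no filter on low counts and 0 with a mitochondrial limit of 20%. The shares of all genes called under these settings are not given here, so the counts are not read as particular to the members. Over all settings, 198 of 227 counts were within 1.5 times the main count and 29 were not. Results of single members were the same in 1524 cases, moved in 134, weaker in 129 and reversed in 10. With DESeq2 in place of edgeR, 99 member calls were the same and 16 weaker, and the 6 counts of calls stayed within 1.5 times. Of the members' medians 132 stayed within 0.1 and 44 did not, among them 11 with free RNA subtracted, 10 with TMM factors and 10 with DESeq2 size factors, and of the shares of cells 5 moved and 1 did not.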

Other observations

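Outside the comparisons above, single members stood out in smaller gates. Type 1 conventional dendritic cells carried Psap at 5532, 5436 and 5760.1 CPM at day 2 (15 cells), day 7 and after reversal, against 1894, 2863 and 3237 in C1q-high macrophages. Ccr7-positive dendritic cells, of which 49 were found at day 7, carried Cd63 at 1117, against 141 in type 2 dendritic cells. Of those 49 cells 22 lay near the gate's threshold, and of the type 1 cells 10 of 15 at day 2, 3 of 107 at day 7 and 20 of 52 after reversal.

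Ctsk, the collagen-degrading protease, was at 157, 147 and 87.1 CPM in fibroblast or mural cells at day 2 (12 cells), day 7 (80 cells) and after reversal (89 cells). After thinning, 10.0% of these cells held a Ctsk UMI at day 7 and 7.87% after reversal, while 0 of 478 and 0 of 361 endothelial cells did. A 0 at the thinned depth does not limit the share of endothelial cells that carry the transcript. T cells carried Acp5 at 104, 86.9 and 92.2 at day 2, day 7 and after reversal, and 7.92%, 7.22% and 8.91% of thinned T cells held an Acp5 UMI. These differences were not tested.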
